A study of Rattus norvegicus with 28 samples.

Results

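The genes described here encode Akap5 and the machinery of protein kinase A anchoring, as measured in the rat kidney fibroblast line NRK-49F. They are 9 named genes out of the 30178 in the expression table, namely the anchoring protein genes Akap5, Akap12, Akap13 and Akap1, the catalytic subunit genes Prkaca and Prkacb, and the regulatory subunit genes Prkar1a, Prkar2a and Prkar2b. The group was chosen by measured values, the fall of Akap5 FPKM in these same libraries, so Akap5 is described throughout without a test and the comparison that chose it (TGF-β + MetR against TGF-β) is described without p-values for any of the 9, its calls being given only as counts. All 9 were found and all passed the filter on low values. RNA-seq was made from 8 libraries, 2 in each of 4 groups. In the TGF-β + MetR group, cells were kept for 48 h with TGF-β1 (given as 5 ng/uL in the labels) under methionine restriction, with 30 uM methionine against 200 uM in the matching control medium. In the TGF-β + siHoxc8 group, the 48 h of cytokine were combined with an siRNA, a short RNA that silences its target, here Hoxc8, a homeobox transcription factor. In the TGF-β group, cells received the cytokine for 48 h without restriction or siRNA, and control cells received neither, with no time given. All cells were starved beforehand for 24 h in 0.2% serum. Cells of a single line stand for kidney fibroblasts here, the RNA-seq groups include no library with a control siRNA, and the effect of transfection therefore cannot be told apart from that of lowering Hoxc8.

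Protein kinase A is the main effector of the second messenger cAMP. Without cAMP its catalytic subunits are held inactive by a dimer of regulatory subunits, and cAMP binding to the regulatory subunits frees them. A-kinase anchoring proteins (AKAPs) bind the regulatory dimer and tether the kinase at chosen places in the cell, often together with phosphatases, other kinases and phosphodiesterases. In fibroblasts cAMP signalling through this kinase is known to oppose the change into contractile, matrix-producing myofibroblasts that TGF-β drives.

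The reads behind the values numbered 15118113 to 20146870 per library. Expression is given in FPKM, fragments per kilobase of gene scaled to library size. Differences are log2 fold changes ± SE, taken after adding 1 to each FPKM value, which shrinks the apparent change of weakly expressed genes. Differences were tested with limma, with Benjamini-Hochberg adjustment over all 12315 genes tested and a threshold of 0.05. Separate cultures are not stated for replicates, so p-values reflect the spread of these particular libraries, which may be technical. Replicates differed with an SD (log2) of 0.307 in TGF-β + MetR, 0.186 in TGF-β + siHoxc8, 0.223 in TGF-β and 0.177 in control, so the MetR libraries stood furthest apart. The balance of calls over all genes moved with the scaling of the libraries. TGF-β against control gave 1269 genes higher and 3523 lower as deposited and 2350 and 2092 after median ratio scaling. TGF-β + MetR against TGF-β gave 4289 and 2345 as deposited and 3136 and 3281 after that scaling, and TGF-β + siHoxc8 against TGF-β gave 3460 and 1934 and then 2574 and 2743. That scaling shifted the median of all genes by 0.20, -0.19 and -0.14 (log2) in these comparisons. Hoxc8, the siRNA target, stood at 0.417 and 0.614 FPKM with TGF-β + MetR, 0.463 and 0.0771 with TGF-β + siHoxc8, 4.32 and 5.01 with TGF-β and 1.12 and 1.34 in control. In each group 7 or 8 of the 10 fibroblast markers in the table reached 1 FPKM, Thy1 was listed at 0 throughout, and the summed endothelial and immune markers reached at most 0.934 and 2.73 FPKM. Of the kidney epithelium markers Epcam and Umod were listed at 0 in every library, while Krt8 ranged from 194 to 685 FPKM.

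Akap5 encodes the scaffold called AKAP150 in rodents, which sits at the inner face of the plasma membrane and holds protein kinase A, protein kinase C and the calcium-activated phosphatase calcineurin beside channels and receptors. It stood at 1.01 and 0.381 FPKM with TGF-β + MetR, 0.343 and 0.632 with TGF-β + siHoxc8, 43.6 and 32.5 with TGF-β and 6.11 and 8.09 in control. Both TGF-β libraries lay above all others, both control libraries lay in between, and the libraries of the 2 combined treatments lay lowest and overlapped each other. The reads behind these values were 55 and 18 with TGF-β + MetR, 14 and 31 with TGF-β + siHoxc8, 1910 and 1440 with TGF-β and 296 and 388 in control. No library of the combined treatments held more than 55 reads of Akap5, and none of the other groups held fewer than 296. At so few reads the order within the combined treatments and the size of their gap to the other groups are uncertain.

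The mean of Akap5 was 38.1 ± 7.85 FPKM with TGF-β against 7.10 ± 1.40 in control (SD, n = 2 each), 5.36-fold higher and a log2 fold change of 2.27 ± 0.24. With TGF-β + MetR it was 0.696 ± 0.444 FPKM, 54.7-fold lower than with TGF-β (-4.54 ± 0.24) and 10.2-fold lower than in control (-2.27 ± 0.24). These folds rest on few reads. They were 99.9-fold and 18.6-fold without MetR replicate 1, and 37.7-fold and 7.03-fold without MetR replicate 2. With TGF-β + siHoxc8 the mean of Akap5 was 0.487 ± 0.205 FPKM, 78.1-fold lower than with TGF-β (-4.71 ± 0.24) and 14.6-fold lower than in control (-2.44 ± 0.24). Without siHoxc8 replicate 1 Akap5 was 60.2-fold and 11.2-fold lower, and without siHoxc8 replicate 2 it was 111-fold and 20.7-fold lower. On the log2 scale its fall ranked second of 12315 genes in TGF-β + MetR against TGF-β and first in TGF-β + siHoxc8 against TGF-β, ranks that describe how it came to be chosen. Over 17 other processing settings the log2 fold change ran from 2.06 to 2.53 for TGF-β against control, from -5.86 to -4.27 for TGF-β + MetR against TGF-β and from -6.27 to -4.50 for TGF-β + siHoxc8 against TGF-β.

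In bulk RNA, fewer cells that express a gene and less RNA of it per cell cannot be told apart. The summed myofibroblast markers, like Akap5, were highest with TGF-β, and their part in the values of Akap5 was not tested. Of the 5 markers, Acta2, Tagln and Postn reached 1 FPKM in each group, and Cnn1 and Myl9 stayed at or below 0.279 FPKM. Their summed level ranged from 256 to 426 FPKM with TGF-β + MetR, from 273 to 281 with TGF-β + siHoxc8, from 647 to 678 with TGF-β and from 17.9 to 18.6 in control. The order of this sum differed from that of Akap5 at the low end, since control cells had the lowest marker sum but an intermediate level of Akap5. Against control the sum was thus higher in both combined treatments, where the value of Akap5 was lower.

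**Figure D1:**
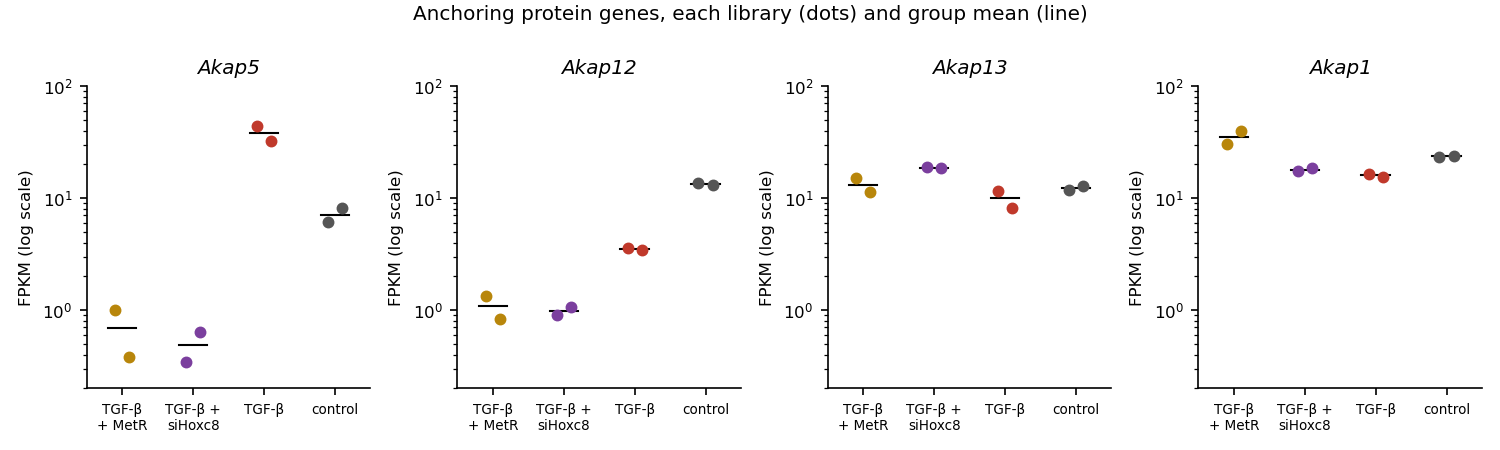
FPKM on a log scale (y axis) of the 4 anchoring protein genes in each library, by group (x axis); dots are libraries and lines are means of 2 libraries. Akap5 stands at 43.6 and 32.5 FPKM with TGF-β and between 0.343 and 1.01 FPKM in the 4 libraries of both combined treatments, while Akap12 is highest in control.

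The 3 genes of the group with the largest differences outside the comparison that chose it, Akap5, Akap12 and Prkar2b, are shown with the 250 bases upstream of their annotated starts, to set the sequence of their promoters beside their levels. The sequences are RefSeq's (assembly GRCr8, a different build from the rn6 listed for the deposited values), read 5′ to 3′ on the gene's strand, at chr6:100786919-100787168 (+) for Akap5, chr1:43135265-43135514 (+) for Akap12 and chr6:54381412-54381661 (-) for Prkar2b. Capitals mark matches on either strand to the GC box GGGCGG, the Smad box CAGAC and TGATGTCA, a variant of the cAMP response element that was added after the Akap5 sequence had been read.
Akap5: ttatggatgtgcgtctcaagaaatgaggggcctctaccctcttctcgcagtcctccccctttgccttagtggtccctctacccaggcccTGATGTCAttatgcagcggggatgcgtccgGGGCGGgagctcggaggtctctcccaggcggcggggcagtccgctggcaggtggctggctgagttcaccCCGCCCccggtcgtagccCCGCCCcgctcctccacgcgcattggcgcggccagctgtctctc
Akap12: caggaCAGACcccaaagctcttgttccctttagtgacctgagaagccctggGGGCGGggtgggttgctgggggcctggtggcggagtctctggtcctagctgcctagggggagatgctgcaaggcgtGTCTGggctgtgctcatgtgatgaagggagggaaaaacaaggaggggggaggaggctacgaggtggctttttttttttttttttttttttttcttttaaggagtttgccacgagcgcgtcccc
Prkar2b: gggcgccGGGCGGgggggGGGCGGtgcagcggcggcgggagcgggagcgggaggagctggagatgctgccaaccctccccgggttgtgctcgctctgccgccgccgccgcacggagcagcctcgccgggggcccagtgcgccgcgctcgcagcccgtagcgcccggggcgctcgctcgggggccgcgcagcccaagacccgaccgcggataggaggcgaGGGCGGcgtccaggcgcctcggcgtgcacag

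The Akap5 window was 66.8% G or C and held TGATGTCA 161 bases before the start, GC boxes at 131, 62 and 44 bases and a CCAAT box (CCAAT) at 23 bases. The homeodomain core TAATNA lay at 156 bases, overlapping TGATGTCA. Among the same windows of 27457 promoters, 3.75% held TGATGTCA, 32.4% a GC box, 34.3% a CCAAT box and 25% the homeodomain core. The full cAMP response element TGACGTCA, its core TGACG, the AP-1 site TGANTCA, the Smad box and TATAAA were not in the Akap5 window, against 1.70%, 19.0%, 6.36%, 42.8% and 13.1% of all promoters that hold them. The Akap12 window, 55.6% G or C, held Smad boxes at 245 and 123 bases and a GC box at 199 bases. The Prkar2b window, 80.8% G or C, held GC boxes at 243, 232 and 31 bases and none of the other motifs searched. Of the 9 genes 8 had an entry in the promoter table, all but Prkar2a. TGATGTCA was taken from the Akap5 sequence, so its match there was fixed in advance and nothing is read from it. The homeodomain core, whose letters overlap it, was found in 1 of these 8, Akap5, against 25% of all promoters. Nothing is read from that match either. Such matches describe the letters and do not show that a factor binds them.

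Akap12, also called gravin or SSeCKS, encodes a scaffold for protein kinases A and C beneath the plasma membrane that is also tied to the cytoskeleton. It stood at 1.34 and 0.824 FPKM with TGF-β + MetR, 0.902 and 1.07 with TGF-β + siHoxc8, 3.58 and 3.46 with TGF-β and 13.6 and 12.9 in control. Control libraries lay highest, TGF-β libraries in between, and the libraries of the combined treatments lowest and overlapping. Akap12 fell with TGF-β against control (-1.66 ± 0.15, adjusted p = 0.000294, 3.77-fold lower), where the value of Akap5 was higher. With TGF-β + siHoxc8 it fell further, to a level 3.57-fold lower than with TGF-β (-1.19 ± 0.15, adjusted p = 0.00088) and 13.5-fold lower than in control (-2.85 ± 0.15, adjusted p = 2.18e-05). TGF-β + MetR left it 12.3-fold lower than in control (-2.79 ± 0.15, adjusted p = 1.87e-05), and against TGF-β its value was -1.13 ± 0.15. Between TGF-β + siHoxc8 and TGF-β + MetR the difference was -0.06 ± 0.15 (adjusted p = 0.771, 95% interval -0.42 to 0.30).

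Akap1 encodes the anchoring protein of the outer mitochondrial membrane. Its levels were 30.2 and 39.4 FPKM with TGF-β + MetR, 17.3 and 18.4 with TGF-β + siHoxc8, 16.3 and 15.5 with TGF-β and 23.3 and 23.9 in control. The MetR libraries lay above all others, and neither library of TGF-β + siHoxc8 or of TGF-β reached the control range. Akap1 fell with TGF-β against control (-0.54 ± 0.13, adjusted p = 0.0153). That call was lost after median ratio scaling, without either control library and when the second TGF-β library was left out (adjusted p = 0.0691, 0.0794, 0.0893 and 0.0729, with all alternatives spanning 0.00136 to 0.0893). With TGF-β + MetR it was 2.19-fold the TGF-β level, a log2 difference of 1.07 ± 0.13, and rose against control by 0.53 ± 0.13 (adjusted p = 0.0105). The rise against control did not pass without control replicate 1 or 2 (adjusted p = 0.0633 and 0.0515, range 0.000583 to 0.0633). With TGF-β + siHoxc8 it was lower than with TGF-β + MetR (-0.92 ± 0.13, adjusted p = 0.000934) and differed from TGF-β by 0.16 ± 0.13 (adjusted p = 0.37). Against control its fall with TGF-β + siHoxc8 was -0.39 ± 0.13 (adjusted p = 0.0426). It did not pass when weakly expressed genes were kept in, after median ratio scaling, or without any 1 of the control, TGF-β or siHoxc8 libraries (adjusted p = 0.0524 to 0.189, with all alternatives spanning 0.000833 to 0.189).

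Akap13, also called AKAP-Lbc, encodes an anchoring protein that is at once a guanine nucleotide exchange factor. It stood at 15.0 and 11.3 FPKM with TGF-β + MetR, 19.1 and 18.4 with TGF-β + siHoxc8, 11.6 and 8.22 with TGF-β and 11.8 and 12.8 in control. Both siHoxc8 libraries lay above the other 6, which overlapped in part. Akap13 rose with TGF-β + siHoxc8 against TGF-β (0.87 ± 0.18, adjusted p = 0.00664, 1.89-fold higher). Against control the difference was 0.57 ± 0.18 (adjusted p = 0.0325), which did not pass with no filter on low values or without any 1 of the 4 libraries compared (adjusted p = 0.0683 to 0.146, with all alternatives spanning 0.000766 to 0.146). Against TGF-β + MetR it was 0.49 ± 0.18 (adjusted p = 0.0502). That value passed at a mean of at least 5 FPKM, after median ratio scaling or quantile normalization, with a replicate block, with limma-voom, and without either TGF-β library or the first MetR library (adjusted p = 0.0173 to 0.0468, with all alternatives spanning 0.0173 to 0.197). TGF-β against control gave -0.30 ± 0.18 (adjusted p = 0.221).

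FPKM is scaled to gene length, so levels of these genes were set side by side, though the lengths rest on an annotation that is not given. Shares hold only within the genes summed. Other anchoring protein genes, such as Ezr at 45.8 and 46.2 FPKM in control, lie outside the sum. The 4 anchoring protein genes summed to 47.6 and 51.9 FPKM with TGF-β + MetR, 37.6 and 38.4 with TGF-β + siHoxc8, 75.1 and 59.7 with TGF-β and 54.8 and 57.8 in control. Akap5 made up 2.12% and 0.734% of that sum with TGF-β + MetR, 0.911% and 1.64% with TGF-β + siHoxc8, 58.1% and 54.5% with TGF-β and 11.1% and 14.0% in control. In both combined treatments the sum therefore consisted almost wholly of Akap1 and Akap13. Akap1 led with TGF-β + MetR, at 63.6% and 75.9%, while Akap13 (50.7% and 47.8%) and Akap1 (46.0% and 47.8%) were near equal with TGF-β + siHoxc8. The share of Akap12 was 2.82% and 1.59% with TGF-β + MetR, 2.40% and 2.78% with TGF-β + siHoxc8, 4.77% and 5.80% with TGF-β and 24.8% and 22.4% in control.

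**Figure D2:**
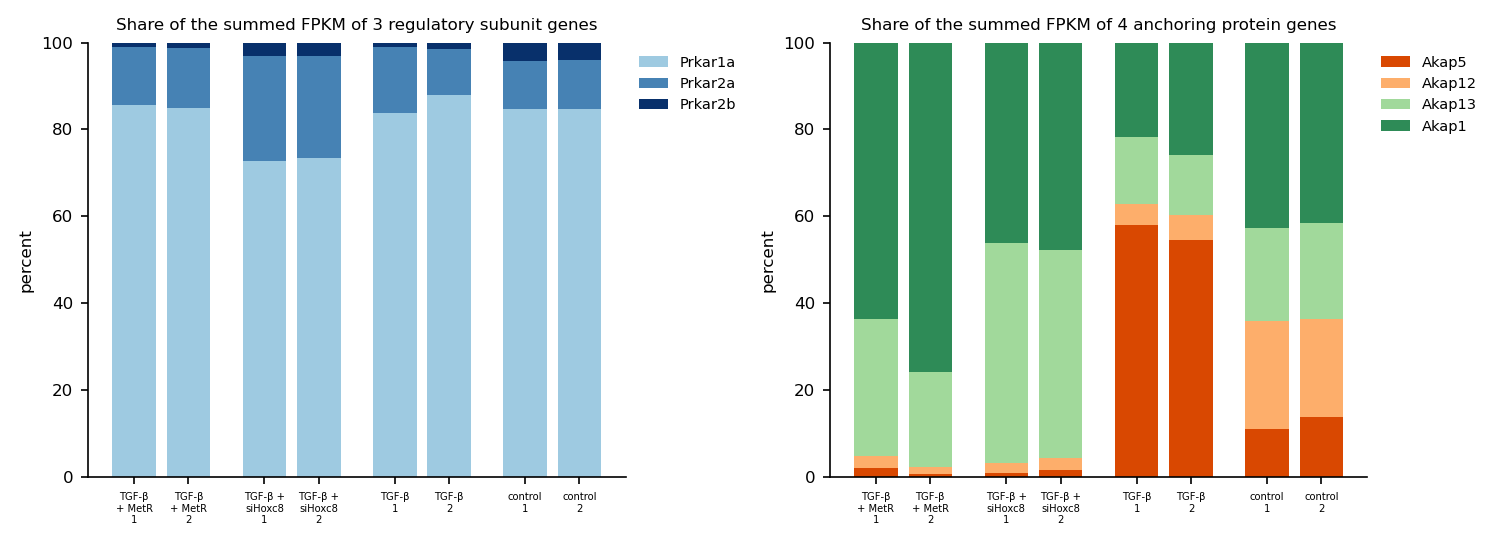
Stacked bars of each library's percent of the summed FPKM (y axis) for the 3 regulatory subunit genes (left) and the 4 anchoring protein genes (right), by library (x axis). Akap5 fills 58.1% and 54.5% of the anchoring sum with TGF-β, and Prkar2a fills 24.1% and 23.4% of the regulatory sum with TGF-β + siHoxc8.

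Prkar2b encodes the RIIβ subunit, one of the type II regulatory subunits that most anchoring proteins bind with high affinity. It stood at 2.84 and 3.69 FPKM with TGF-β + MetR, 9.38 and 9.04 with TGF-β + siHoxc8, 2.49 and 3.45 with TGF-β and 11.8 and 10.8 in control. The MetR and TGF-β libraries overlapped at the low end, and the siHoxc8 libraries lay just below control. Prkar2b fell with TGF-β against control (-1.64 ± 0.16, adjusted p = 0.000356, 3.81-fold lower). It was higher with TGF-β + siHoxc8 than with TGF-β (1.37 ± 0.16, adjusted p = 0.000583, 3.10-fold) and than with TGF-β + MetR (1.27 ± 0.16, adjusted p = 0.000529, 2.82-fold). With TGF-β + siHoxc8 against control the difference was -0.27 ± 0.16 (adjusted p = 0.201, 95% interval -0.65 to 0.11), and it passed with library weights and in a fit of only these 2 groups (adjusted p = 0.0298 and 0.0274, with all alternatives spanning 0.0274 to 0.496). With TGF-β + MetR it remained lower than in control (-1.54 ± 0.16, adjusted p = 0.000192) and differed from TGF-β by 0.11 ± 0.16. The 4 calls of Prkar2b kept their side of the threshold under all 17 alternatives.

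Prkar2a encodes the other type II subunit, RIIα. Its levels were 34.6 and 42.7 FPKM with TGF-β + MetR, 71.3 and 68.1 with TGF-β + siHoxc8, 35.7 and 27.0 with TGF-β and 30.1 and 31.0 in control. The siHoxc8 libraries lay far above the other 6. Prkar2a rose with TGF-β + siHoxc8 against TGF-β (1.14 ± 0.15, adjusted p = 0.000989, 2.22-fold higher), against control (1.16 ± 0.15, adjusted p = 0.000759) and against TGF-β + MetR (0.84 ± 0.15, adjusted p = 0.00268). TGF-β + MetR against control gave 0.32 ± 0.15 (adjusted p = 0.104), which passed without MetR replicate 1 (adjusted p = 0.0345, with all alternatives spanning 0.0345 to 0.368). TGF-β against control gave 0.03 ± 0.15 (adjusted p = 0.907, 95% interval -0.33 to 0.38), so the type II genes differed in their values with the cytokine but were both higher with the siRNA than with the cytokine alone. Together Prkar2a and Prkar2b summed to 80.7 and 77.1 FPKM with TGF-β + siHoxc8, against 30.5 to 46.4 FPKM in the other 6 libraries. The epithelial marker sum was also highest there (646 to 686 FPKM with TGF-β + siHoxc8 and 194 to 255 in the other groups). That sum was nearly all Krt8 and does not stand for the list. Krt18, Krt19 and Cdh1 reached at most 0.0411, 0.652 and 0.105 FPKM, and Cdh16 and Aqp1 at most 2.76 and 3.26 FPKM. The part of Krt8 in these values was not tested.

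Prkar1a encodes RIα, the type I regulatory subunit found mostly in the cytosol, and had the highest level of the 9 genes. It stood at 224 and 263 FPKM with TGF-β + MetR, 216 and 213 with TGF-β + siHoxc8, 196 and 221 with TGF-β and 231 and 232 in control. All libraries lay within a narrow range, and none of the 5 tested differences passed, from -0.18 ± 0.11 (TGF-β + siHoxc8 against TGF-β + MetR, adjusted p = 0.209) to 0.07 ± 0.11 (TGF-β + MetR against control, adjusted p = 0.621). Quantile normalization made calls of 3 of these differences, TGF-β against control, TGF-β + siHoxc8 against control and TGF-β + siHoxc8 against TGF-β + MetR (adjusted p = 0.0319, 0.0205 and 0.00196, with all alternatives spanning 0.0319 to 0.695, 0.0205 to 0.717 and 0.00196 to 0.604). The siHoxc8 difference from control also passed in a fit of only those groups (adjusted p = 0.0279), and that from TGF-β + MetR without MetR replicate 1 (adjusted p = 0.0386). The RefSeq table lists a Prkar1a pseudogene, so reads could be split between near copies. Prkar1a made up 72.8% and 73.5% of the regulatory sum with TGF-β + siHoxc8 and 83.7% to 87.9% in the other 6 libraries. The share of Prkar2b was 3.16% and 3.11% with TGF-β + siHoxc8, 1.06% to 1.37% in the TGF-β + MetR and TGF-β libraries and 4.33% and 3.95% in control.

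Prkaca, for the catalytic subunit Cα, stood at 28.6 and 24.5 FPKM with TGF-β + MetR, 15.5 and 16.9 with TGF-β + siHoxc8, 22.2 and 24.0 with TGF-β and 26.2 and 27.5 in control. The siHoxc8 libraries lay below the other 6. Prkaca fell with TGF-β + siHoxc8 against TGF-β (-0.49 ± 0.11, adjusted p = 0.0101), against TGF-β + MetR (-0.68 ± 0.11, adjusted p = 0.00172) and against control (-0.70 ± 0.11, adjusted p = 0.00189). The first of these calls was lost without TGF-β replicate 2 or without siHoxc8 replicate 1 (adjusted p = 0.0514 and 0.0859, range 0.00257 to 0.0859). Prkacb, for the Cβ subunit, stood at 38.3 and 29.7 FPKM with TGF-β + MetR, 32.3 and 32.3 with TGF-β + siHoxc8, 33.4 and 28.0 with TGF-β and 36.8 and 35.8 in control. The spread within the MetR pair and the TGF-β pair was as wide as the gaps between groups, and none of its 5 tested differences passed (-0.24 ± 0.14 in TGF-β against control, adjusted p = 0.211, was the furthest from 0). In a fit of only the 2 groups, TGF-β + siHoxc8 against control passed for Prkacb (adjusted p = 0.0198, with all alternatives spanning 0.0198 to 0.607).

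The sum of the 3 regulatory genes per sum of the 2 catalytic genes was 3.91 and 5.70 with TGF-β + MetR, 6.20 and 5.90 with TGF-β + siHoxc8, 4.21 and 4.83 with TGF-β and 4.34 and 4.33 in control. Both siHoxc8 values lay above the rest, while the MetR pair spanned most of the range. Prkacb held 67.6% and 65.7% of the catalytic sum with TGF-β + siHoxc8 and 53.8% to 60.1% in the other 6 libraries. These ratios describe RNA and not the amounts of protein.

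**Figure D3:**
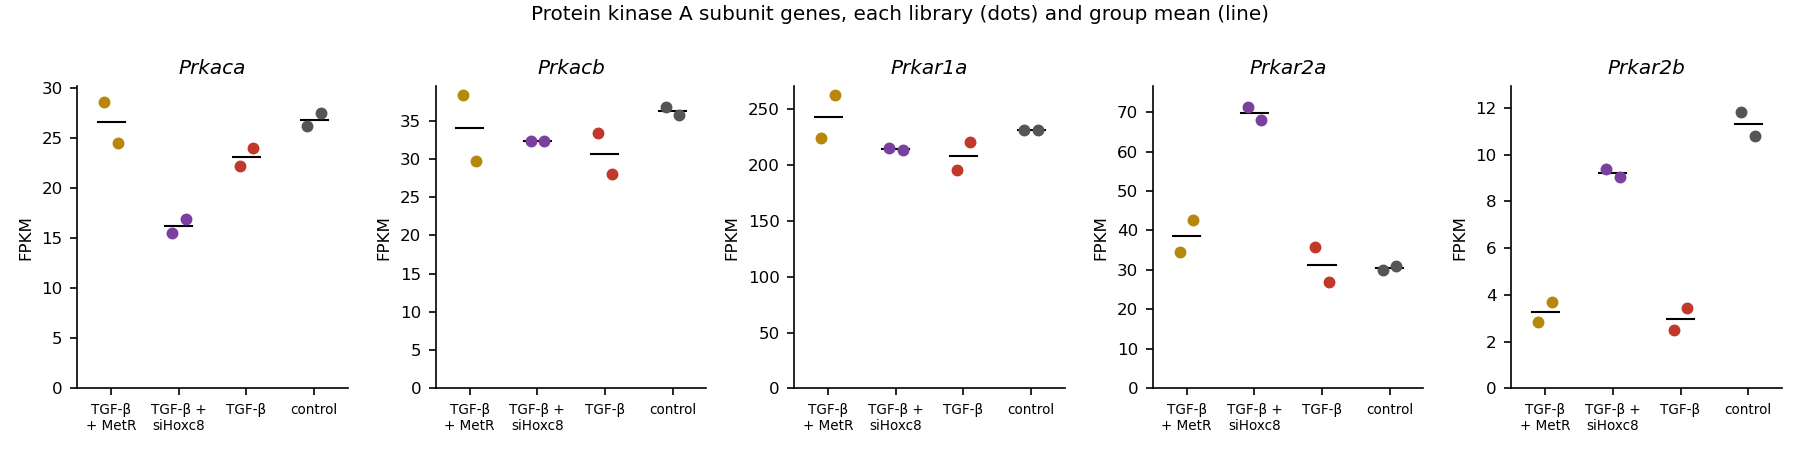
FPKM (y axis, linear from 0, its own scale for each gene) of the 5 kinase subunit genes in each library, by group (x axis); dots are libraries and lines are means of 2 libraries. Prkar2a is highest and Prkaca lowest with TGF-β + siHoxc8, and Prkar2b is low with TGF-β + MetR and with TGF-β.

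Counts over the 8 genes besides Akap5 are given beside the percent of all tested genes that limma called. In TGF-β against control 0 were higher, 3 were lower (Akap12, Akap1 and Prkar2b) and 5 did not pass, where 38.9% of all tested genes were called. The number higher was also 0 at an unadjusted p under 0.05 and 0 with limma-voom. The median log2 fold change was -0.27 over the 8 and -0.19 over all genes. In TGF-β + siHoxc8 against TGF-β 3 were higher (Akap13, Prkar2a and Prkar2b), 2 were lower (Akap12 and Prkaca) and 3 did not pass, against 43.8% of all genes called, with medians of 0.12 over the 8 and 0.13 over all. In TGF-β + MetR against TGF-β 1 was higher, 1 was lower and 6 did not pass, against 53.9% of all genes, and nothing is read from this count because the comparison chose the group.

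In TGF-β + MetR against control 1 of the 8 was higher (Akap1) and 2 were lower (Akap12 and Prkar2b), against 57.3% of all genes called. In TGF-β + siHoxc8 against control 2 were higher (Akap13 and Prkar2a) and 3 were lower (Akap12, Akap1 and Prkaca), against 48.7% of all genes. In TGF-β + siHoxc8 against TGF-β + MetR 2 were higher (Prkar2a and Prkar2b) and 2 were lower (Akap1 and Prkaca), against 54.2% of all genes. Comparisons that share libraries are not independent of each other.

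**Figure D4:**
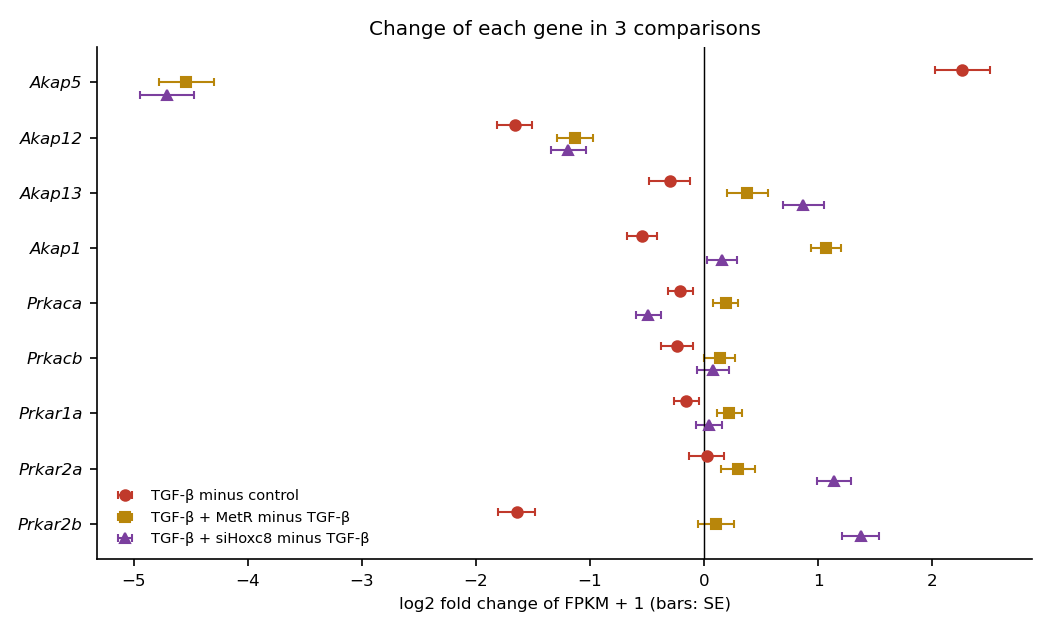
Log2 fold change of FPKM + 1 (x axis) of each of the 9 genes (y axis) in 3 comparisons; symbols are estimates and bars are SE from limma. Akap5 lies at 2.27 in TGF-β against control and at -4.54 and -4.71 in the comparisons of the combined treatments with TGF-β, and Prkar2a and Prkar2b lie at 1.14 and 1.37 in TGF-β + siHoxc8 against TGF-β.

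The pattern of Akap5 over the 8 libraries was set beside that of every other tested gene by Pearson correlation of log2(FPKM + 1), as a description in which all points share their libraries. The 5 genes with the highest correlation were Ddah1 (r = 0.995), Galnt10 (0.991), Flna (0.990), Tpm1 (0.986) and Fblim1 (0.986). Ddah1, which breaks down methylated arginines that inhibit nitric oxide synthase, averaged 5.96 FPKM with TGF-β + MetR, 6.19 with TGF-β + siHoxc8, 39.3 with TGF-β and 14.9 in control. Flna, the actin crosslinker filamin A, averaged 222 FPKM with TGF-β + MetR, 198 with TGF-β + siHoxc8, 583 with TGF-β and 360 in control. Tpm1, a tropomyosin of actin filaments, averaged 211 FPKM with TGF-β + MetR, 205 with TGF-β + siHoxc8, 528 with TGF-β and 303 in control. Their lowest means were again those of the combined treatments. Galnt10, an enzyme that starts O-linked glycosylation, averaged 93.2 FPKM with TGF-β + MetR, 91.3 with TGF-β + siHoxc8, 174 with TGF-β and 131 in control. Fblim1, which links filamin to cell adhesions, averaged 7.99 FPKM with TGF-β + MetR, 6.05 with TGF-β + siHoxc8, 38.5 with TGF-β and 19.3 in control. All 5 were highest with TGF-β, intermediate in control and lowest in the combined treatments, an order that follows from picking them by correlation with Akap5. Their drop in the combined treatments was far smaller than that of Akap5. The list depended on the scaling, since 2 of the 5 were among the highest after median ratio scaling and 2 after quantile normalization. Within the group the correlation with Akap5 was 0.57 for Akap12, -0.72 for Akap13, -0.69 for Prkar2a and between -0.54 and 0.33 for the other 5.

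The wider cAMP pathway was described through 9 lists with 162 genes, of which 90 were tested. Counts of these lists are read against the percent of all genes called in the same comparison, given above. Several of them moved with the scaling of the libraries.

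Among 17 tested genes of other anchoring proteins, 0 rose and 8 fell with TGF-β against control (median -0.30, against -0.19 over all genes). At an unadjusted p under 0.05 the numbers were 0 and 9, with limma-voom 0 and 9, and after median ratio scaling or quantile normalization 1 rose and 4 fell. Rab32, a mitochondrial small GTPase that binds the kinase, stood at 12.8 and 13.7 FPKM with TGF-β against 38.0 and 37.3 in control (-1.44 ± 0.17, adjusted p = 0.000861). Ezr, the membrane linker ezrin, stood at 22.4 and 22.9 FPKM with TGF-β against 45.8 and 46.2 in control (-0.99 ± 0.09, adjusted p = 0.000296). With TGF-β + siHoxc8 against TGF-β 4 rose and 6 fell. The intermediate filament protein gene Synm had 6.62 and 6.27 FPKM with TGF-β + siHoxc8 against 0.788 and 0.755 with TGF-β (2.07 ± 0.12, adjusted p = 4.05e-05), and Akap7, which anchors the kinase to ion channels, had 3.74 and 3.69 FPKM with TGF-β + siHoxc8 against 9.26 and 10.4 with TGF-β (-1.20 ± 0.13, adjusted p = 0.000362). With TGF-β + MetR against TGF-β 6 were higher and 3 lower. The widest difference was that of Akap17a, a splicing-associated anchoring protein, at 71.5 and 76.5 FPKM with TGF-β + MetR against 15.3 and 16.3 with TGF-β. Akap8, a nuclear anchoring protein, stood at 47.3 and 49.1 FPKM with TGF-β + MetR against 18.4 and 17.7 with TGF-β. Both were lower with TGF-β + siHoxc8 than with TGF-β + MetR (-1.70 ± 0.09, adjusted p = 1.91e-05 for Akap17a, and -1.12 ± 0.09, adjusted p = 6.48e-05 for Akap8).

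The remaining kinase genes held another regulatory subunit that moved. Prkar1b, for RIβ, a type I subunit best known from brain, stood at 2.90 and 6.16 FPKM with TGF-β + MetR, 8.83 and 7.15 with TGF-β + siHoxc8, 2.06 and 2.26 with TGF-β and 0.104 and 0.0523 in control. All 6 libraries with the cytokine lay above both control libraries. Prkar1b rose with TGF-β against control (1.55 ± 0.27, adjusted p = 0.0038) and rose with TGF-β + siHoxc8 against TGF-β (1.50 ± 0.27, adjusted p = 0.00352). Of the 4 neuron markers, Rbfox3 and Snap25 were listed at 0 in every library, Syn1 stayed at or below 0.282 FPKM and Map2 ranged from 5.11 to 24.1 FPKM. Prkx, a relative of the catalytic subunits, fell to 3.24 and 3.97 FPKM with TGF-β + siHoxc8, against 8.74 and 8.71 with TGF-β (-1.08 ± 0.12, adjusted p = 0.000527). Pkig, an inhibitor of the free catalytic subunit, stood at 60.5 and 66.3 FPKM with TGF-β + MetR against 38.8 and 48.6 with TGF-β.

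Genes that make, sense and break down cAMP gave mixed counts. Of 11 adenylyl cyclase and G protein genes, 1 rose and 3 fell with TGF-β against control (1 and 1 after median ratio scaling, 3 and 3 after quantile normalization), and 3 rose and 1 fell with TGF-β + siHoxc8 against TGF-β (3 and 3, and 3 and 2). Adcy5, a calcium-inhibited cyclase, had 0.509 and 0.352 FPKM with TGF-β against 2.43 and 2.17 in control. It reached 1 FPKM in the control libraries alone and so passed the filter through the group where it was high, and its place among the 3 falls is no support for them. Gnas, the stimulatory G protein, had 88.7 and 101 FPKM with TGF-β against 67.1 and 64.3 in control (0.52 ± 0.10, adjusted p = 0.00528). Adcy6, a related cyclase, had 65.4 and 57.5 FPKM with TGF-β + MetR, 27.0 and 27.9 with TGF-β + siHoxc8 and 42.4 and 35.6 with TGF-β, and it fell in TGF-β + siHoxc8 against TGF-β (-0.49 ± 0.11, adjusted p = 0.0113). The 3 rises in that comparison were larger. They were those of Adcy7 and Gnao1 (1.44 ± 0.31 and 0.93 ± 0.20, adjusted p = 0.00743 and 0.00739) and of Adcy8. Adcy8 had 2.09 and 1.52 FPKM with TGF-β + siHoxc8 against 0.0134 and 0.0399 with TGF-β. It reached 1 FPKM in the combined treatments alone and so passed the filter through the groups where it was high. Its place among the 3 rises is no support for them. Only 3 of the 26 genes listed for Gs-coupled receptors and their accessory proteins passed the filter. Of these 0 rose and 2 fell with TGF-β against control, the receptor gene Calcrl and the accessory protein gene Ramp2 (0 and 2 also at an unadjusted p under 0.05 and with limma-voom, 0 and 1 after median ratio scaling, 0 and 0 after quantile normalization). Of 7 phosphodiesterase genes, 0 rose with TGF-β against control (1 at an unadjusted p under 0.05, 1 with limma-voom, 1 after median ratio scaling and 2 after quantile normalization) and 1 fell. That was Pde4b, at 1.53 and 1.67 FPKM with TGF-β against 6.78 and 7.94 in control (-1.68 ± 0.27, adjusted p = 0.00282). With TGF-β + siHoxc8 against TGF-β 2 rose and 2 fell (1 and 2 after either scaling), among them Pde3b at 14.5 and 13.4 FPKM with TGF-β + siHoxc8 against 5.73 and 5.71 with TGF-β (1.15 ± 0.11, adjusted p = 0.00028). Of the 5 tested genes of other cAMP effectors 0 rose and 3 fell with TGF-β against control (0 and 4 at an unadjusted p under 0.05 or with limma-voom, 0 and 1 after either scaling). Rapgef3, the exchange factor EPAC1, had 2.58 and 1.94 FPKM with TGF-β against 5.84 and 5.88 in control (-1.08 ± 0.16, adjusted p = 0.00225).

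**Figure D5:**
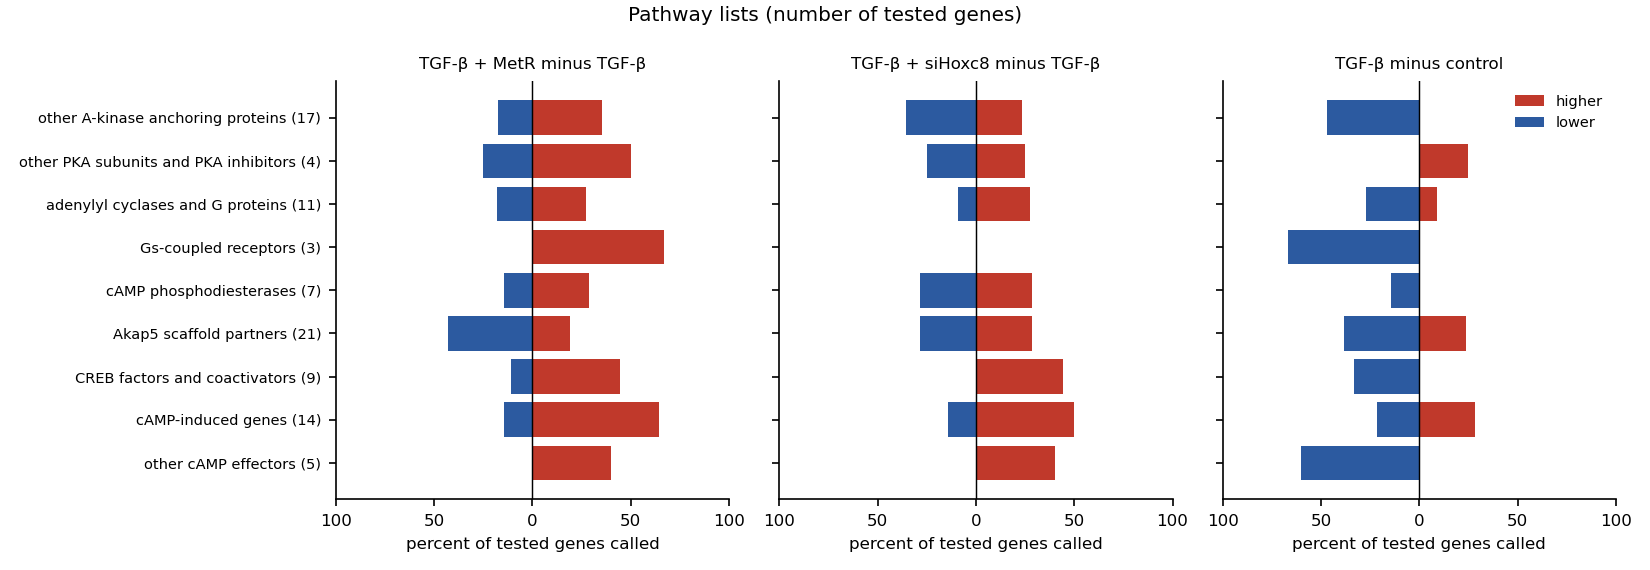
Percent of the tested genes of each pathway list (x axis; right, higher; left, lower) that limma called in 3 comparisons, with the number of tested genes after each list's name (y axis). With the values as deposited, bars run both ways in 7 of 9 lists in TGF-β + MetR against TGF-β. In TGF-β against control the other anchoring proteins have bars to the left alone, 8 of 17 genes (1 higher and 4 lower after either scaling). So do the Gs-coupled receptors, phosphodiesterases, CREB factors and other cAMP effectors. Over all tested genes 1269 were higher and 3523 lower in that comparison, 38.9% called.

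The 21 tested genes of proteins known to bind the Akap5 scaffold went both ways. With TGF-β against control 5 rose and 8 fell, a balance that turned to 7 and 3 after median ratio scaling and 6 and 3 after quantile normalization, and with TGF-β + siHoxc8 against TGF-β 6 rose and 6 fell. With TGF-β + MetR against TGF-β 4 were higher and 9 lower (1 and 11 after median ratio scaling, 3 and 11 after quantile normalization), with a median of -0.28 against 0.18 over all genes. Kcnj2, an inwardly rectifying potassium channel, stood at 3.78 and 1.12 FPKM with TGF-β + MetR, 9.33 and 8.42 with TGF-β + siHoxc8, 1.40 and 1.02 with TGF-β and 6.41 and 4.73 in control. It was lowest in the TGF-β libraries and 1 MetR library and highest in the siHoxc8 libraries, with a fall in TGF-β against control (-1.57 ± 0.35, adjusted p = 0.0105) and a rise in TGF-β + siHoxc8 against TGF-β (2.17 ± 0.35, adjusted p = 0.00217). Zdhhc2, a palmitoyltransferase that acts on the scaffold, stood at 2.69 and 1.09 FPKM with TGF-β + MetR, 4.48 and 5.73 with TGF-β and 1.06 and 1.07 in control, and it rose in TGF-β against control (1.56 ± 0.28, adjusted p = 0.00432). Nfatc4, a calcineurin-driven transcription factor, rose with TGF-β against control (0.91 ± 0.19, adjusted p = 0.0093) and fell with TGF-β + siHoxc8 against TGF-β (-1.11 ± 0.19, adjusted p = 0.00328), whereas Nfatc3, of the same family, rose with TGF-β + siHoxc8 against TGF-β (1.25 ± 0.14, adjusted p = 0.000519). Ppp3cb, a catalytic subunit of calcineurin, was at 8.72 and 11.1 FPKM with TGF-β + MetR, 23.5 and 23.4 with TGF-β + siHoxc8, 18.7 and 19.7 with TGF-β and 27.7 and 25.2 in control. It was higher with TGF-β + siHoxc8 than with TGF-β + MetR (1.17 ± 0.13, adjusted p = 0.000255).

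Downstream of the kinase, the 9 genes of CREB factors and their coactivators gave 0 rises and 3 falls with TGF-β against control (Crebbp, Crtc3 and Crem) and 4 rises and 0 falls with TGF-β + siHoxc8 against TGF-β (median 0.46, against 0.13 over all genes). The first pair of numbers was 0 and 4 at an unadjusted p under 0.05, 0 and 3 with limma-voom and 0 and 0 after median ratio scaling. The second was 5 and 1 at an unadjusted p under 0.05, 4 and 0 with limma-voom and 3 and 1 after median ratio scaling. Of all tested genes 38.9% and 43.8% were called in these comparisons. As deposited, falls outnumbered rises over all genes in the first, and rises outnumbered falls in the second. Crem, a cAMP-responsive transcription factor, stood at 4.92 and 5.31 FPKM with TGF-β + siHoxc8 against 2.41 and 2.58 with TGF-β (0.81 ± 0.13, adjusted p = 0.00207), and Atf1, a CREB relative, at 48.5 and 48.7 FPKM with TGF-β + siHoxc8 against 25.7 and 26.6 with TGF-β (0.87 ± 0.14, adjusted p = 0.00216). Of 14 tested genes that cAMP is known to induce, 4 rose and 3 fell with TGF-β against control (6 and 2 after median ratio scaling, 5 and 2 after quantile normalization), and 7 rose and 2 fell with TGF-β + siHoxc8 against TGF-β (7 and 3, and 6 and 3). With TGF-β + MetR against TGF-β 9 were higher and 2 lower. Among the 3 falls with TGF-β against control was Nr4a2, at 0.402 and 0.47 FPKM with TGF-β against 2 and 1.62 in control. Outside control it reached 1 FPKM in MetR replicate 1 alone, so it passed the filter through the group where it was high. Its place among the 3 falls is therefore no support for them. Areg, the growth factor amphiregulin, stood at 3.61 and 6.87 FPKM with TGF-β + MetR, 19.5 and 17.4 with TGF-β + siHoxc8, 1.19 and 1.28 with TGF-β and 6.75 and 6.82 in control. It fell with TGF-β against control (-1.80 ± 0.23, adjusted p = 0.00107) and rose with TGF-β + siHoxc8 against TGF-β (3.12 ± 0.23, adjusted p = 9.04e-05). Id2, an inhibitor of helix-loop-helix factors, went the other way with the siRNA, at 5.32 and 7.02 FPKM with TGF-β + siHoxc8 against 37.9 and 46.1 with TGF-β (-2.59 ± 0.26, adjusted p = 0.00032). Many of these genes answer to other signals besides cAMP.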

How the data were processed

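RNA-seq libraries of NRK-49F cells were analysed from 1 table of FPKM values that the authors deposited with gene symbols. Per the submitters' processing notes, the series used featureCounts, deepTools, Trim Galore and Bowtie2 (2.3.5.1) with the rn6 build, their roles not stated. No source used here gives the annotation, the strand setting or the FPKM denominator. The 20 chromatin samples of the series were not analysed here. Whole reads were recovered from the steps of the FPKM values for 100% of 19435 genes above 0 (tolerance 0.02 reads), which together held 99.86% to 99.89% of the total behind the values, and 10743 of 30178 genes were listed at 0 in every library.

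The test covered genes that reached 1 FPKM in 2 or more libraries, with a pseudocount of 1 before log2, and used limma (version 3.58.1, R 4.3.3), in 1 linear model over 8 libraries with 1 coefficient per group, moderated variances and a trend (4 residual degrees of freedom, two-sided, Benjamini-Hochberg). The fit was tested on simulated data. Members and lists were chosen with earlier results of these data known, and 1 further list is not reported here. Genes named are all members, up to 4 called genes of each list and comparison by size of change, and the 5 most correlated with Akap5. Promoters were searched with Python 3.11.15. Alternatives changed the pseudocount, filter, scaling, groups fitted, weights, replicate block or test (limma-voom on recovered reads), or left out a library.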

Additional observations from a re-analysis of the deposited data

How the results depend on the processing

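Values were recomputed under 17 alternatives, among them leaving out each library. Of the log2 fold changes, 823 were kept, 24 gained and 21 lost a call, 15 moved and 29 changed sign, and the cause was not tested. For the tested genes, kept means the same direction and side of the threshold. Akap5, which was not tested, counted as kept with the same direction and a shift below the model's residual SD. A larger shift of Akap5 counted as moved. After median ratio scaling the sign changed for Prkaca (0.0163) and Prkar1a (0.0784) in TGF-β against control, for Prkaca (-0.020), Prkacb (-0.0753) and Prkar2b (-0.0603) in TGF-β + MetR against TGF-β, and for Akap1 (-0.00355), Prkacb (-0.0869) and Prkar1a (-0.124) in TGF-β + siHoxc8 against TGF-β. With quantile normalization it changed for Prkaca (-0.0236), Prkacb (-0.0629) and Prkar2b (-0.0555) in TGF-β + MetR against TGF-β, for Prkacb (-0.0403) and Prkar1a (-0.00454) in TGF-β + siHoxc8 against TGF-β, and for Prkacb (0.0226) in TGF-β + siHoxc8 against TGF-β + MetR. None of these values was a call. Leaving out 1 library changed the sign of other uncalled values. In TGF-β against control Prkar2a ran from -0.17 to 0.22. In TGF-β + MetR against TGF-β Prkar2b ran from -0.0694 to 0.282 and Prkacb from -0.0404 to 0.316. In TGF-β + siHoxc8 against TGF-β Prkar1a ran from -0.0421 to 0.13 and Prkacb from -0.0463 to 0.201. In TGF-β + MetR against control Prkaca ran from -0.124 to 0.091, Akap13 from -0.109 to 0.268, Prkacb from -0.279 to 0.0766 and Prkar1a from -0.0458 to 0.182. In TGF-β + siHoxc8 against TGF-β + MetR Akap5 ran from -0.441 to 0.0999, Akap12 from -0.238 to 0.121 and Prkacb from -0.238 to 0.118.

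Counts of the 8 genes called moved by more than 1.5 times in 2 comparisons, and by up to 1.5 times in the others (3 ran from 2 to 4 in TGF-β against control and 4 from 4 to 6 in TGF-β + siHoxc8 against TGF-β + MetR). In TGF-β + MetR against TGF-β, 2 became 1 at a mean of at least 5 FPKM, where Akap12 was not tested, and 2 to 4 with a library left out (4 without TGF-β replicate 1 or either MetR library). In TGF-β + siHoxc8 against control, 5 became 3 with no filter, 8 in a fit of only the 2 groups, and 3 to 5 with a library left out (3 without any 1 of the 4 compared). Of the 90 pathway genes, 42 were called in TGF-β against control (16 to 51 with a library left out, fewest without control replicate 1 or 2, 23 without TGF-β replicate 2), and 53 in TGF-β + MetR against TGF-β (33 in a fit of only the 2 groups and 35 with library weights). In TGF-β + siHoxc8 the calls were 47 against TGF-β (31 to 57, fewest without siHoxc8 replicate 1) and 47 against TGF-β + MetR (31 to 51, fewest without siHoxc8 replicate 1). Of the 5 genes most like Akap5, 2 were kept after median ratio scaling, 2 with quantile normalization and 3 to 5 with a library left out. Deviations of same-numbered libraries from their group means correlated at r = 0.20 between TGF-β and TGF-β + MetR. In the other pairs of groups r lay between -0.02 and 0.02, and the main fit did not pair the libraries. With a replicate block the members called were 3 in TGF-β against control, 2 in TGF-β + MetR against TGF-β and 5 in TGF-β + siHoxc8 against TGF-β.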
